A study of Homo sapiens with 6 samples.

Results

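Cyclin-dependent kinases (CDKs) and the inhibitors that bind them were examined in 22RV1 cells, a human castration-resistant prostate cancer (CRPC) cell line. The genes were taken by symbol: 5 CDKs (CDK1, CDK2, CDK4, CDK6 and CDK7) and 5 CDK inhibitors (CDKN1B, CDKN1C, CDKN2B, CDKN2C and CDKN2D), 10 of the 26255 genes in the deposited files. CDKs and inhibitors outside these 10 are not part of the sums, shares and ratios below. RNA had been sequenced from 3 samples treated with vehicle (DMSO) and 3 samples treated with 10 nM bruceantin (BCT), each for 24 h in full medium with FBS, which leaves the androgen of the serum in all 6. All samples come from a single cell line, and the labels do not say whether the 3 samples of a group were separate cultures, so p-values measure the spread between these samples, which may be technical. Values are FPKM, fragments scaled by transcript length and by mapped reads, so levels of different genes can be set side by side.

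CDKs are catalytic subunits that work only when bound to a cyclin. CDK4 and CDK6 pair with D-type cyclins in G1 phase, CDK2 with cyclins E and A at the start of and during S phase, and CDK1 with cyclins A and B up to mitosis, while CDK7, with cyclin H and MAT1, phosphorylates the other CDKs and is also part of the general transcription factor TFIIH. Inhibitors of the INK4 family (here CDKN2B, CDKN2C and CDKN2D, encoding p15, p18 and p19) bind CDK4 and CDK6 alone. Those of the CIP/KIP family (here CDKN1B and CDKN1C, encoding p27 and p57) bind cyclin-CDK complexes, above all those of CDK2. Many of these proteins are controlled by phosphorylation and degradation, which RNA does not show. In bulk RNA, fewer cells in a phase of the cell cycle and less RNA per cell cannot be told apart.

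Summed over all genes, FPKM came to 1169649 to 1572321 per sample with DMSO and 757534 to 799838 with BCT, and a single small RNA gene, MIR6087, accounted for 43.5% to 55.3% of it in the DMSO samples and 31.7% to 32.5% in the BCT samples. The values were used as deposited, because the median FPKM of the tested genes then lay between 11.8 and 12.1 in every sample. The files give no read counts; low values placed the depth of the samples between 0.878 and 1.13 times that of DMSO replicate 1. All 10 prostate luminal epithelial markers were detected, and their summed level was 1067 to 1069 FPKM with DMSO and 2034 to 2192 FPKM with BCT. Of 11 blood, endothelial and fibroblast markers, 8 stayed under 1 FPKM in every sample. The summed level of these 11 was 4.96 to 6.15 FPKM with DMSO and 12.0 to 15.4 FPKM with BCT, and the defining genes PTPRC, CD3E, PECAM1, VWF, CDH5 and COL1A2 never exceeded 0.0910 FPKM. Without CD68 and COL1A1 the sum was 1.26 to 1.68 FPKM with DMSO and 0.881 to 1.01 FPKM with BCT. The part of these differences in the results was not tested. BCT replicate 1 correlated more with the DMSO samples (0.892 to 0.896 across genes) than the other BCT samples did (0.851 to 0.857).

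All 10 genes averaged 1 FPKM or more over the 6 samples and were tested, CDKN2B only because of its BCT values. A gene was called changed when limma, fitted on log2(FPKM + 0.1) over 12729 genes with Benjamini-Hochberg adjustment, gave a false discovery rate (FDR) below 0.05 and an absolute log2 fold change above 0.85. By this rule 9 of the 10 changed, while 31.6% of all tested genes did. Of these, 6 fell (17.8% of all genes) and 3 rose (13.9% of all genes). The 10 genes were chosen with earlier results of these data known, so the counts are a description and no test against all genes. The fallers were CDK1, CDK2, CDK4, CDKN1C, CDKN2C and CDKN2D, and the risers were CDK7, CDKN1B and CDKN2B. CDK6 was not called. In the 9 called genes no BCT sample overlapped a DMSO sample, a separation found in 85.3% of all tested genes, so the separation by itself is common in these data. The median log2 fold change was -0.98 for the 10 genes and -0.038 for all tested genes. After rescaling every sample to the same FPKM sum, which moves the median of all genes to 0.72, 2 of the 10 genes fell and 3 rose, beside 5.25% and 44.1% of all tested genes.

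**Figure D1:**
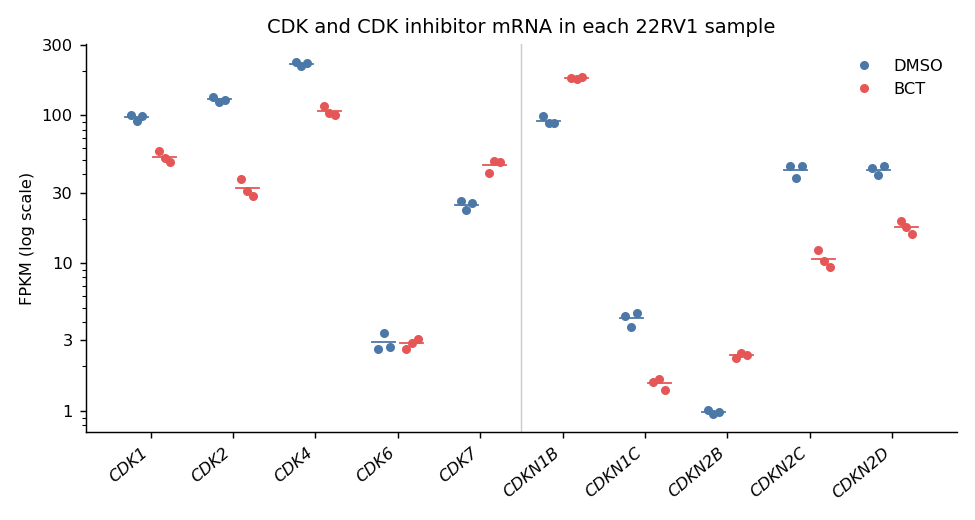
FPKM of the 5 CDK genes (left) and 5 CDK inhibitor genes (right) on a log axis, with a point for each sample and a line at the mean of 3 DMSO (blue) or 3 BCT (red) samples. CDKN1B lies between 88.8 and 98.3 FPKM with DMSO and between 176 and 182 FPKM with BCT, whereas the CDK6 points of both groups lie between 2.62 and 3.37 FPKM.

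CDK2, the kinase of S phase entry, had the lowest fold change of the 5 CDKs. It lies on chromosome 12 from 56360553 to 56366573 (hg19). Its level was 134, 124 and 127 FPKM in the DMSO samples and 37.0, 30.6 and 28.6 FPKM in the BCT samples. Every BCT sample was thus far below every DMSO sample, and BCT replicate 1 was the nearest of them to DMSO. The mean dropped from 128 ± 5.06 to 32.1 ± 4.40 FPKM (SD, n = 3 each). On the log2 scale it changed by -2.00 with a standard error of 0.092 (limma, Benjamini-Hochberg adjusted p = 7.6e-07), and 2.70% of all tested genes had a lower fold change. Exons of an antisense transcript that the files do not list, ENSG00000258554, cover 14.5% of the annotated exonic bases of CDK2.

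CDK4, the G1 kinase and the most abundant of the 10 genes with DMSO, also fell. CDK4, on chromosome 12 from 58138784 to 58146230, measured 231, 215 and 227 FPKM in the DMSO samples against 116, 104 and 100 FPKM in the BCT samples. This was a log2 fold change of -1.07 (95% interval -1.22 to -0.92). The 2 groups were well apart, with a ratio of DMSO to BCT means of 2.10. GENCODE, an annotation lifted to the same genome, places CDK4 from 58141510 to 58149796. In the deposited annotation CDK4 shares its interval with TSPAN31, a tetraspanin gene on the opposite strand. The exons of TSPAN31 cover 44.2% of the annotated exonic bases of CDK4. The library kit named in the labels, TruSeq RNA Library Prep Kit v2, does not mark strand, so reads from exons shared by both genes cannot be told apart. TSPAN31 was listed at 20.8 ± 0.871 FPKM with DMSO and 28.5 ± 1.50 FPKM with BCT, a lower level than CDK4 and in the other direction (log2 fold change 0.45, not past the fold change threshold).

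CDK1, the kinase that drives entry into mitosis, fell as well. It lies on chromosome 10 from 62538089 to 62554610. Its level was 101, 91.7 and 99.0 FPKM in the DMSO samples and 57.4, 51.4 and 48.1 FPKM in the BCT samples. The groups did not overlap, and the mean with DMSO was 1.86 times that with BCT. The log2 fold change of -0.90 (95% interval -1.06 to -0.73) stood close to the threshold, and without BCT replicate 3 it was -0.84 and no longer called.

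CDK6, which acts in the same step as CDK4, was a minor transcript in these cells and was not called. Its deposited interval on chromosome 7, from 92234235 to 92546501, is shared with LOC101927497, which was at 0 FPKM in every sample. GENCODE places CDK6 from 92234235 to 92465887. The CDK6 level was 2.62, 3.37 and 2.72 FPKM in the DMSO samples and 2.64, 2.90 and 3.05 FPKM in the BCT samples. The groups overlapped, and the log2 fold change was -0.01 with a 95% interval of -0.28 to 0.26 (adjusted p = 0.92, limma with Benjamini-Hochberg adjustment). With the rescaling to equal sums its log2 fold change was 0.73, beside 0.72 for the median of all genes.

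CDK7, the kinase that activates the other CDKs, was the only CDK of the 5 that rose. It lies on chromosome 5 from 68530622 to 68573257 and was at 26.3, 22.7 and 25.4 FPKM with DMSO and 40.7, 49.2 and 48.1 FPKM with BCT. All BCT values were above all DMSO values, with BCT replicate 1 the lowest of them. The log2 fold change was 0.89 (95% interval 0.69 to 1.09), and leaving out DMSO replicate 2 (0.82) or BCT replicate 2 (0.83) ended the call.

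**Figure D2:**
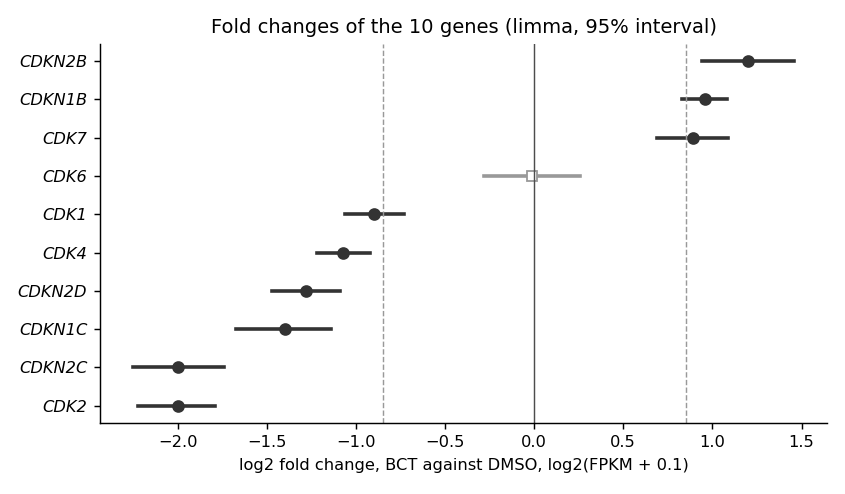
Log2 fold change of each gene, BCT against DMSO, with its 95% interval from limma (3 samples per group), filled circles for called genes, an open square for CDK6 and dashed lines at the threshold of 0.85 on either side of 0. CDK2 and CDKN2C share the lowest value, -2.00, and CDKN2B has the highest, 1.20.

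Among the inhibitors, the CIP/KIP genes examined moved in opposite directions. CDKN1B, on chromosome 12 from 12870204 to 12875316, was at 98.3, 88.8 and 88.9 FPKM with DMSO and 179, 176 and 182 FPKM with BCT. The BCT samples were nearly equal to each other and all higher than the DMSO samples, so that its mean rose 1.94-fold from 92.0 ± 5.44 to 179 ± 2.83 FPKM (SD, n = 3 each). Its log2 fold change of 0.96 had the smallest standard error of the 10 genes, 0.054 (adjusted p = 1.5e-06, limma with Benjamini-Hochberg adjustment). CDKN1C, an imprinted gene on chromosome 11 from 2904448 to 2906995, was low, at 4.41, 3.70 and 4.59 FPKM with DMSO and 1.57, 1.65 and 1.39 FPKM with BCT. It fell in every BCT sample, with a log2 fold change of -1.40 (95% interval -1.67 to -1.14).

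The INK4 genes examined were split as well. CDKN2C, on chromosome 1 from 51434367 to 51440309, was at 45.4, 37.6 and 45.6 FPKM with DMSO and 12.3, 10.3 and 9.44 FPKM with BCT. Its mean fell from 42.9 ± 4.58 to 10.7 ± 1.48 FPKM (SD, n = 3 each), and the log2 fold change of -2.00 (95% interval -2.25 to -1.74) was the same as that of CDK2 at this precision. Annotated exons of the antisense transcript ENSG00000290102, which has no value in the files, overlap 20.4% of its exonic bases. CDKN2D, on chromosome 19 from 10677138 to 10679655, was at 43.9, 39.6 and 45.1 FPKM with DMSO and 19.4, 17.6 and 15.8 FPKM with BCT, a log2 fold change of -1.28 (95% interval -1.47 to -1.09). Both genes were thus at the same level with DMSO and both were lower in all BCT samples, with CDKN2C the lower of them.

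CDKN2B rose, from the lowest level of the 10 genes. The DMSO samples had 1.01, 0.946 and 0.978 FPKM and the BCT samples 2.29, 2.47 and 2.40 FPKM, a log2 fold change of 1.20 (95% interval 0.94 to 1.46). Its DMSO mean of 0.979 FPKM is under the filter, which it passed through its BCT values, and with a pseudocount of 1 its log2 fold change was 0.77 and not called. The deposited annotation gives it the interval on chromosome 9 from 21994790 to 22121093, which it shares with the antisense gene CDKN2B-AS1. GENCODE, lifted to the same genome, places CDKN2B from 22002902 to 22009304 with 0 exonic bases in common with that gene. CDKN2B-AS1 was at 1.13, 1.03 and 1.33 FPKM with DMSO and 0.682, 0.747 and 0.640 FPKM with BCT. Its values were lower in all BCT samples, the opposite of CDKN2B, and it was not tested because its mean is under 1 FPKM.

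The order of the levels changed between the groups. With DMSO it ran from CDK4 (225 FPKM) over CDK2 (128), CDK1 (97.2), CDKN1B (92.0), CDKN2C and CDKN2D (42.9 each), CDK7 (24.8), CDKN1C (4.24) and CDK6 (2.90) to CDKN2B (0.979). In this order the sample ranges of neighbours overlapped for CDK1 and CDKN1B and for CDKN2C and CDKN2D, and for no other neighbours. With BCT, CDKN1B was highest (179 FPKM), followed by CDK4 (107), CDK1 (52.3), CDK7 (46.0), CDK2 (32.1), CDKN2D (17.6), CDKN2C (10.7), CDK6 (2.86), CDKN2B (2.38) and CDKN1C (1.53). Only CDK1 and CDK7 had overlapping ranges there. CDKN1B thus moved from the 91.6 to the 96.8 percentile of all tested genes, and CDK2 from the 94.2 to the 76.6 percentile.

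Ratios within a sample do not depend on how samples are scaled to each other by a single factor. They are given as a description with no test, since the genes were chosen with results known. CDKN1B to CDK2, an inhibitor and the kinase it restrains, stood at 0.734, 0.717 and 0.700 with DMSO and at 4.83, 5.76 and 6.36 with BCT. The ratio was 7.88 times higher with BCT, with the CDKN1B transcript below the CDK2 transcript in all DMSO samples and above it in all BCT samples. CDK1 to CDK2 was 0.755, 0.740 and 0.780 with DMSO and 1.55, 1.68 and 1.68 with BCT. CDK4 to CDK6 was 88.5, 63.7 and 83.7 with DMSO and 44.0, 36.0 and 32.8 with BCT, so CDK4 remained far more abundant in both groups.

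CDKN2C was also lower relative to CDK4, the kinase it binds, and CDKN2D slightly so on the deposited values. CDKN2C to CDK4 went from 0.191 ± 0.0137 to 0.0997 ± 0.00597 and CDKN2D to CDK4 from 0.191 ± 0.00694 to 0.165 ± 0.00545 (SD, n = 3 each). After a correction for GC content and length the log2 fold changes of CDKN2D and CDK4 were -0.98 and -0.96, so this difference for CDKN2D depended on the processing, while CDKN2C was at -1.77. The 3 INK4 genes examined, summed against CDK4 and CDK6 summed, gave 0.386, 0.358 and 0.398 with DMSO and 0.286, 0.283 and 0.269 with BCT. On the deposited values no ratio overlapped between the groups. The summed FPKM of the 5 CDKs was 478 ± 19.6 with DMSO and 240 ± 13.1 with BCT, while that of the 5 inhibitors was 183 ± 11.3 and 211 ± 2.99. Within the inhibitor sum CDKN1B made up 50.3% ± 2.09 with DMSO and 84.7% ± 1.41 with BCT, and CDKN2C 23.4% ± 1.31 and 5.06% ± 0.648. Within the CDK sum CDK2 went from 26.8% ± 0.425 to 13.3% ± 1.10 and CDK7 from 5.19% ± 0.184 to 19.3% ± 2.81, while CDK1 and CDK4 kept shares of 20.3% and 47.0% with DMSO and 21.8% and 44.5% with BCT.

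**Figure D3:**
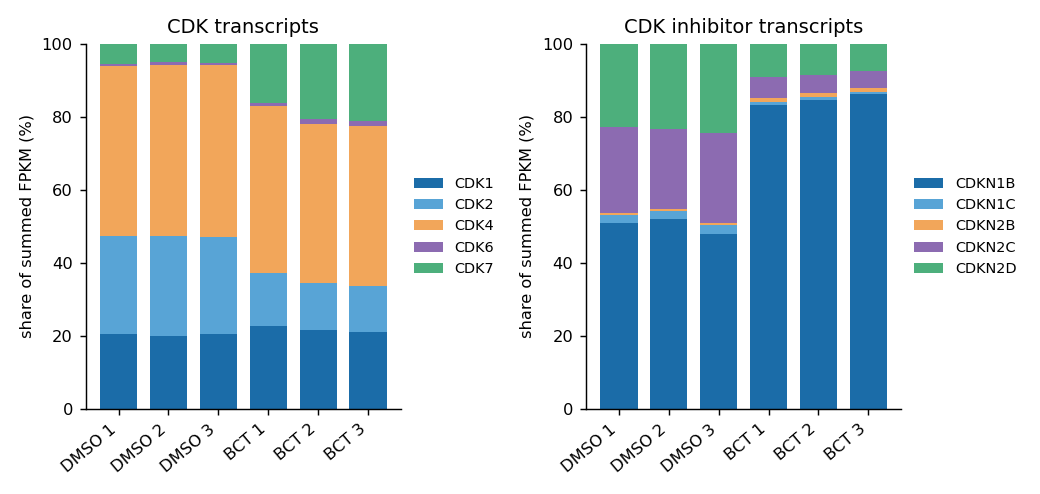
Share of each gene in the summed FPKM of the 5 CDKs (left) and of the 5 inhibitors (right) in each of the 6 samples, in percent. CDKN1B takes 48.0% to 52.0% of the inhibitor sum with DMSO and 83.4% to 86.2% with BCT, and CDK7 takes 4.98% to 5.31% and 16.0% to 21.1% of the CDK sum.

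Each kinase was next set beside the subunits it binds. The partners of CDK2 fell with it: CCNE1, cyclin E1, dropped from 4.59 ± 0.248 to 1.03 ± 0.167 FPKM (log2 fold change -2.06), CCNE2 from 20.1 ± 1.63 to 6.32 ± 0.939 FPKM (-1.66) and CCNA2, cyclin A2, from 72.5 ± 2.16 to 26.5 ± 3.43 FPKM (-1.46; SD, n = 3 each). Exons of CCNE2 and CCNA2 lie in intervals that also hold INTS8 and EXOSC9, whose mean values were higher with BCT (33.2 and 72.3 FPKM) than with DMSO (19.9 and 36.0 FPKM). For CDK1, the cyclin B genes CCNB1 (log2 fold change -0.47, 95% interval -0.64 to -0.31) and CCNB2 (-0.62) did not pass the fold change threshold. The D-type cyclins differed among themselves in their calls. CCND3 fell from 26.0 ± 0.525 to 13.1 ± 1.13 FPKM, whereas CCND1, by far the most abundant cyclin at 871, 869 and 862 FPKM with DMSO and 1018, 795 and 865 FPKM with BCT, overlapped between the groups (log2 fold change 0.03, 95% interval -0.16 to 0.23). The CCND3 fold change of -0.98 became -0.81 after the correction for GC content and length and -0.22 with equal sums, neither of them called, nor was it called in a test against the threshold itself. Quantile normalization gave CCND1 a value of 0.61, not called, at a median of all genes of 0.03. CCND2 stayed at or below 0.271 FPKM. The partners of CDK7 lay just under the fold change threshold, CCNH (cyclin H) at 0.81 and MNAT1 (MAT1) at 0.83. With a sample left out CCNH ranged from 0.76 to 0.87 and MNAT1 from 0.80 to 0.90, and both were called without DMSO replicate 1 or BCT replicate 1, the latter being the BCT sample closest to DMSO in 7 of the 9 called genes. Quantile normalization also gave both a call (0.87 and 0.92), and after the correction for GC content and length they were at 0.73 and 0.76 and not called.

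**Figure D4:**
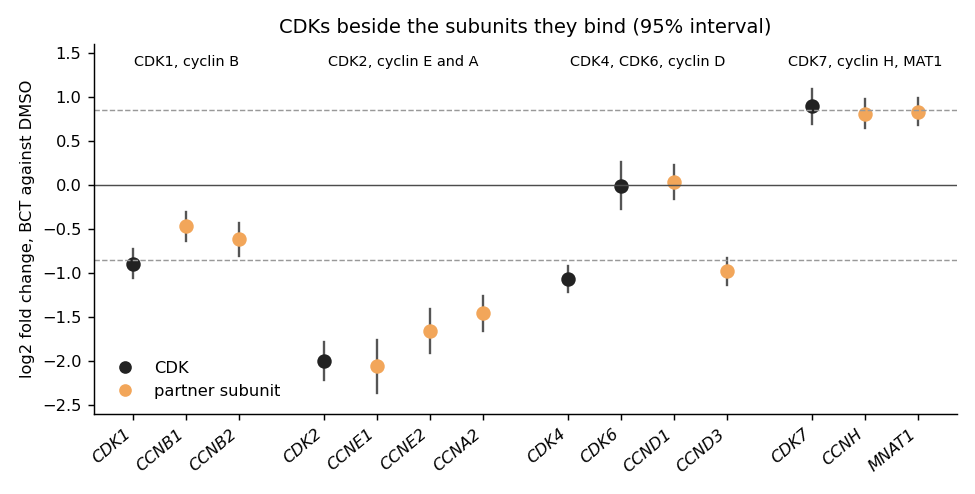
Log2 fold change, BCT against DMSO, of CDK genes (black) and of genes for the subunits they bind (orange), grouped by complex, with 95% intervals from limma (3 samples per group) and dashed lines at the threshold of 0.85. CDK2 and its cyclins lie between -2.06 and -1.46, CDK6 and CCND1 at -0.01 and 0.03, and the 3 subunits with CDK7 between 0.81 and 0.89.

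Other genes of the pathway were counted in 6 hand-written lists. For comparison, 17.8% of all tested genes fell and 13.9% rose, and the lists are too short to read a difference from these shares without a test, which was not run. Of 11 tested cyclins and cofactors, 5 fell and 0 rose, with a median log2 fold change of -0.80, and without BCT replicate 1 the counts were 6 and 2. Apart from the cyclins above, CKS1B fell (-1.52), a small CDK-binding protein that also helps the ligase SKP2 to recognize p27. Among 12 kinases and phosphatases acting on CDKs, 2 fell and 1 rose (median -0.43), close to or under the shares of all genes. The fallers were CHEK2, a DNA damage checkpoint kinase (-1.45), and PKMYT1, which places inhibitory phosphates on CDK1 (-1.09), and the riser was PPM1D, a phosphatase induced by p53 (1.39). PKMYT1 shares its interval with PAQR4, which was also lower with BCT.

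Of 15 genes for ubiquitin ligases that act on inhibitors and cyclins, 3 fell and 1 rose (median -0.11), together a smaller share than the 31.6% called among all genes. SKP2, the F-box protein that targets p27 for degradation, was at 32.3, 30.1 and 31.8 FPKM with DMSO and 10.6, 7.75 and 8.51 FPKM with BCT (log2 fold change -1.81), opposite to CDKN1B. DTL, which directs degradation of replication proteins in S phase, fell by 1.61 and UBAC1, a subunit of a further ligase for p27, by 1.08 on the log2 scale. RNF123, another ligase gene of the list, went the other way, from 14.0 ± 0.148 to 21.0 ± 1.37 FPKM. Its log2 fold change of 0.58 was short of the threshold. The interval of RNF123 also holds GMPPB and AMIGO3, with means of 36.5 and 2.59 FPKM with DMSO and 24.7 and 2.85 FPKM with BCT. The interval of DTL also holds INTS7, whose mean was higher with BCT (24.0 FPKM) than with DMSO (8.03 FPKM). FBXW7, the F-box protein for cyclin E, rose (0.92). In the list of 18 pocket proteins and E2F factors, the substrates and outputs of CDK4 and CDK2, 6 fell and 1 rose (median -0.55), among them E2F1 (from 49.7 ± 0.971 to 11.8 ± 1.61 FPKM, log2 fold change -2.08), E2F2 (-1.91), RBBP4 (-1.45, in an interval with SYNC, which was lower as well) and LIN37 (1.29), a subunit of the DREAM repressor complex.

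Of 17 other tested CDKs and CDK-like kinases, 1 fell and 3 rose, also a smaller share than 31.6%, and their median was 0.50. All 17 were under an FDR of 0.05 (6 lower, 11 higher), so the others missed the call by the fold change threshold alone. No count by the FDR alone is given for all genes, so 17 of 17 cannot be set against a usual share. BCT and DMSO values were fully apart for all 17, but this held for 85.3% of the genes tested as well. CDK18 fell (-2.26, from 3.66 ± 0.0709 to 0.697 ± 0.160 FPKM). CDKL3 (1.53), CDK3 (1.01) and CDK13 (0.87), the last a kinase of RNA polymerase II, rose, and CDK3 shares its interval with the read-through gene TEN1-CDK3, so its level is uncertain. None of the 7 chaperone genes that load CDK4 and CDK6, HSP90 and CDC37 among them, was called (0 of 7, median -0.48, range -0.81 to 0.33). In limma all 7 had an unadjusted p under 0.05 and 6 an FDR under 0.05, of which 5 were lower and 1 higher with BCT. For these counts, too, no share over all genes is at hand, so they may be no more than usual here. HSP90AA1 (-0.71) and HSP90AB1 (-0.76) were among the lower ones and CDC37 (0.33) was the higher one, all short of the fold change threshold. After rescaling to equal sums the counts of genes that fell and rose were 2 and 2 for the cyclins and cofactors, 0 and 3 for the kinases and phosphatases, 1 and 5 for the ligases, 2 and 5 for the pocket and E2F genes, 1 and 11 for the other CDKs and 0 and 2 for the chaperones. On that scale 5.25% of all tested genes were called lower and 44.1% higher.

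Among the 80 pathway genes tested outside the 10, those with the profile nearest to each called gene over the 6 samples were found by the root mean square difference of log2 values centred on the DMSO mean. For CDK2 these were E2F1 (difference 0.054) and E2F2 (0.093), and the same genes were nearest to CDKN2C (0.10 and 0.13). CDK2 and CDKN2C differed from each other by 0.072. MNAT1 was nearest to CDK7 (0.075), FBXW7 to CDKN1B (0.092), TFDP1 to CDKN2D (0.089), CKS2 to CDK1 (0.076), UBAC1 to CDK4 (0.053), CHEK2 to CDKN1C (0.12) and LIN37 to CDKN2B (0.088). The distance is dominated by the difference between the treatments and describes likeness in these samples.

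The promoters of the genes were searched for words known from cell cycle promoters, and windows around matches are shown because CDK1, CDKN2C and CDKN2D fell while CDKN1B rose. The words were CCAAT, the CHR element TTTGAA, and the E2F sites TTTGGCGC and TTTCGCGC, each on both strands. RefSeq promoters (GRCh38.p14, 250 bases before to 50 after a start) were at hand for 8 of the 10 genes, 13 in all, and not for CDK2 and CDKN1C. CDK1 was the only one of the 8 with a CHR element or an E2F site. Each was in 2 of the 13 promoters, both of them overlapping promoters of CDK1 that share the E2F site, and in 15.2% and 1.15% of 35116 promoters. CCAAT was in 5 of the 13, which belong to CDK1, CDKN2C, CDKN2D and CDKN1B, and in 34.6% of all promoters, a similar share. CDKN2C has 3 promoters and only 1 match in them. The windows below are 30 bases each, read 5′ to 3′ on the strand of the gene, with the named word in capitals (ATTGG is CCAAT on the other strand). Of the 3 CCAAT matches of CDKN1B, only the match 50 bases before the start is shown. The CDK1 windows lie before the downstream of its 2 listed starts. They show the E2F site, both CCAAT words of the promoter at that start and the CHR element nearest to it, out of 9 matches in its 2 promoters, and a further TTTGAA stands in lower case in the first CCAAT window.
CDK1, E2F site, chr10:60778339-60778368, plus strand: tttcctctttcTTTCGCGCtctagccaccc
CDK1, CCAAT, chr10:60778388-60778417, plus strand: agctgggctctgATTGGctgctttgaaagt
CDK1, CCAAT, chr10:60778420-60778449, plus strand: acgggctacccgATTGGtgaatccggggcc
CDK1, CHR element, chr10:60778448-60778477, plus strand: ccctttagcgcggtgagTTTGAAactgctc
CDKN2C, CCAAT, chr1:50970138-50970167, plus strand: aggagcccctctCCAATggctcagttttgc
CDKN2D, CCAAT, chr19:10569196-10569225, minus strand: gccacactctgaCCAATcaggagcgacgcg
CDKN1B, CCAAT, chr12:12717306-12717335, plus strand: ccgccgccgcaaCCAATggatctcctcctc
CDK4, CDK6, CDK7 and CDKN2B held none of the words in these windows, which says only that these letters are absent there. The window coordinates are on GRCh38.p14 and the gene intervals given above on hg19.

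Fold changes depended on the scaling of the samples. With equal FPKM sums CDK1 was at -0.13, CDK4 at -0.30, CDKN1C at -0.67 and CDKN2D at -0.52, none of them called, whereas CDK2 (-1.24) and CDKN2C (-1.23) were still called lower and CDK7 (1.65), CDKN1B (1.73) and CDKN2B (1.92) higher. Relative to the median of all genes, CDK1 was then at -0.85, CDK4 at -1.02, CDK6 at 0.01 and CDKN1B at 1.01. Quantile normalization gave CDK1 a log2 fold change of -0.75 and CDK4 -0.80, both no longer called. GC content moved with the fold changes over all genes: the median was 0.17 for genes with 29.2% to 41.5% GC and -0.27 for those with 56.3% to 85.5%. CDKN1C and CDKN2D are GC-rich (63.8% and 61.2%), and after a correction for GC content and length, added after the data were seen, they were at -1.09 and -0.98 and remained called, as did the other 7 called genes, while CDK6 was at -0.30.

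**Figure D5:**
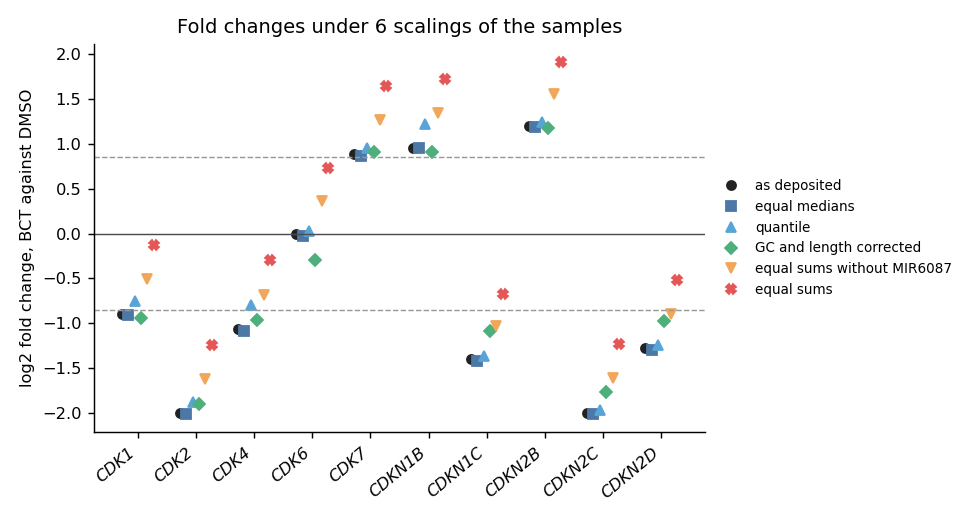
Log2 fold change of the 10 genes, BCT against DMSO, as deposited (black) and under 5 other scalings or corrections, with dashed lines at the threshold of 0.85. Equal sums (red crosses) raise every gene, leaving CDK2 and CDKN2C at -1.24 and -1.23 and bringing CDK1 to -0.13.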

How the data were processed

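RNA-seq of 22RV1 cells covered 3 DMSO and 3 BCT samples (10 nM, 24 h). The authors used Trimmomatic for trimming, HISAT2 for alignment to hg19 and StringTie for assembly, and deposited gene-level FPKM in 1 file per sample. The processing notes also name CASAVA and HTSeq (Trimmomatic at version 0.38). The gene annotation is not given in the sources used here. Sample groups come from the agent label. The files hold no counts, so no count test was run and no counting interval can be given.

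The test was limma 3.58.1 (R 4.3.3; moderated by eBayes, trend on) on log2(FPKM + 0.1) for the 12729 genes averaging 1 FPKM or more, with Benjamini-Hochberg adjustment over them. Fold changes of low genes are understated by this pseudocount. The FDR of 0.05 and the log2 fold change of 0.85 follow the study's text, with an FDR of 0.01, named in its methods, as an alternative. With 3 samples a group, exact tests reach no p under 0.1, and none was run. Steps were tested on simulated data. Start positions are the deposited starts plus 1, which equal a GENCODE transcript start for 4 of the 10 genes. Promoters come from RefSeq.

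The 10 genes and the lists were chosen with earlier results of these data known. Named genes are the 10, the called genes with the largest changes in each list (at most 3 in each direction), the nearest profiles, cyclins and MAT1 beside their kinases, and overlapping genes. MIR6087, CCNB1, CCNB2, RNF123, CD68 and COL1A1 were added after their values were seen. Alternatives covered pseudocount, filter, scaling, variance model, thresholds, replicate block and leaving out each sample; GC and length correction (loess, span 0.5; 97.6% of tested genes) and equal sums without MIR6087 were added after the data were seen.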

Additional observations from a re-analysis of the deposited data

How the results depend on the processing

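Over 21 alternatives, 187 of 207 fold changes of the 10 genes kept their direction and their side of the threshold, 15 kept their direction but lost the call, and 5 changed sign, all of them for CDK6 (0.73 with equal FPKM sums, 0.36 with equal sums without MIR6087, 0.03 with quantile normalization, and -0.08 to 0.10 with a sample left out). The alternatives for filter, variance model, thresholds and replicate block leave each fold change itself as it was. Its direction could not change in them, so these tallies overstate how far direction was tried. The number of the 10 genes called was 9, 8 to 9 with a sample left out, and 5 with equal sums. A test against the fold change threshold itself kept 6 of them and lost CDK1, CDK7 and CDKN1B. Over all genes, 4027 were called (2263 lower, 1764 higher), 6277 with equal sums (668 lower, 5609 higher), 4577 with equal sums without MIR6087 (1208 lower, 3369 higher) and 2425 in the test against the threshold. Calls among the cyclins and cofactors numbered 5 to 8 with a sample left out, those among the ligases 2 in the test against the threshold, and those among the other CDKs 12 and 10 with the equal sums, 2 at a mean of at least 5 FPKM and 2 in that test. For the chaperones they were 2 with equal sums and 0 to 1 with a sample left out. Under quantile normalization the log2 differences of CDKN2C to CDK4, CDKN2D to CDK4 and the INK4 to the CDK4 and CDK6 sum were -1.18, -0.46 and -0.69, against -0.93, -0.21 and -0.45. The cause of these shifts was not tested, other than that equal sums raise all BCT values against DMSO because the BCT sums are lower.

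Samples of both groups carry the numbers 1 to 3. Deviations from the group means correlated at 0.116, 0.033 and 0.034 between same-numbered samples. Between DMSO and BCT samples of different number they correlated at 0.074 for DMSO replicate 2 with BCT replicate 3. The other such pairs were negative, down to -0.115. The labels do not say whether same-numbered samples were handled together, and these values cannot settle it. With the replicate block, 9 of the 10 genes and 4033 of all genes were called. Without read counts, the precision of the low values of CDKN2B, CDKN1C and CDK6 rests on the spread of 3 samples alone.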
